A study of Mus musculus with 6 samples.

Results

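Collagen chains are the genes whose mouse symbol is Col, a number, a and a further number. There were 44 of them among the 22086 genes counted, each gene being read from the transcript that had most counts over the 6 libraries. The study compared hippocampal astrocytes that had lost Connexin 43 (Cx43), the astroglial gap junction protein encoded by Gja1, with astrocytes that had kept it. Mice of both groups were 6 weeks old, carried floxed Cx43 alleles (Cx43 fl/fl) and were heterozygous for Aldh1l1:L10a-eGFP, a transgene that places an eGFP-tagged ribosomal protein under the astrocyte promoter Aldh1l1. The Cx43KO mice also carried hGFAP-Cre, and their littermates without Cre are the Cx43FL controls. Tagged ribosomes were immunoprecipitated from whole hippocampi (translating ribosome affinity purification, TRAP), and 3 libraries were sequenced for each genotype. hGFAP-Cre is known to recombine in neural progenitors as well as in astrocytes. The number of animals behind a library is not given in the sources used here, so that p-values measure the spread between these libraries.

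A collagen is a trimer of alpha chains wound into a triple helix, and several types need chains from more than 1 gene. Fibrillar collagens (types I, II, III, V, XI) build tensile fibrils, FACIT collagens such as type IX coat these fibrils, type IV forms the sheet of basement membranes, types VIII and X form short chain networks, type VI forms beaded filaments, and types XIII, XVII, XXIII and XXV cross the plasma membrane. In the brain, type IV collagen lies in the vascular basement membrane that astrocyte endfeet touch, and fibrillar collagens are known mainly from meninges, choroid plexus stroma and the perivascular fibroblasts of larger vessels.

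The sequences shown are the 250 bases before the RefSeq transcription start (GRCm38.p6, 5′ to 3′ on the strand of the gene) of Col8a1 and Col8a2, which were nearly absent from Cx43FL replicate 2, and of Col25a1, which was not. They are Col8a1 on chr16:57754738-57754987 (minus strand), Col8a2 on chr4:126286544-126286793 (plus strand) and Col25a1 on chr3:130180595-130180844 (plus strand). Capitals mark a GC box (GGGCGG or its reverse complement CCGCCC) or a CCAAT box (CCAAT or its reverse complement ATTGG).
Col8a1: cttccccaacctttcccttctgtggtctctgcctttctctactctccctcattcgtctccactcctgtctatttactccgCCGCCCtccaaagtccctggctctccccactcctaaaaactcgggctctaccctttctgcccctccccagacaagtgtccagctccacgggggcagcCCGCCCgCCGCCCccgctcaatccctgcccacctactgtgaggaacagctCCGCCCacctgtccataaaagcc
Col8a2: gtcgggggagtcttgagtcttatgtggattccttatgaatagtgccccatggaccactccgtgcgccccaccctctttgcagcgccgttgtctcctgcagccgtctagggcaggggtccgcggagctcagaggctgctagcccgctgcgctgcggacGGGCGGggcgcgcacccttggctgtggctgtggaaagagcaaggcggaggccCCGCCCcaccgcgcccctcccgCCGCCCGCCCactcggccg
Col25a1: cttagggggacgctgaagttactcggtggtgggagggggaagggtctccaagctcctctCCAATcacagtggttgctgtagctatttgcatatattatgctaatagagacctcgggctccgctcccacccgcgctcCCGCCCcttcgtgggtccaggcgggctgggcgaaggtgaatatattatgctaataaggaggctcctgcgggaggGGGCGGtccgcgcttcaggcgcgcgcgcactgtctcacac
The Col8a1 and Col8a2 windows each held 4 GC box matches, overlapping matches being counted, and no CCAAT box. The Col25a1 window held 2 GC boxes and 1 CCAAT box, and TATAAA (or TTTATA) was in none of these windows. Of 32851 mouse windows of the same length, 32.7% held a GC box, 33.8% a CCAAT box and 12.4% TATAAA. Of 35 collagen genes with a window, 21 (60%) held a GC box, 13 (37.1%) a CCAAT box and 5 (14.3%) TATAAA. The collagen shares are per gene, a match in any of its windows (38 in all) counting, and the mouse shares are per window. The GC content was 60.8% for Col8a1, 70% for Col8a2 and 60.4% for Col25a1, against a median of 52.4% over all windows. These matches are a description of the letters in the window.

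The counts on genes ranged from 14787315 to 15391187 in Cx43FL and from 16056348 to 34733476 in Cx43KO. In CPM (counts per M counts of a library on tested genes, after TMM scaling), 3 counts were worth between 0.0926 and 0.199, a floor for counting error alone, as PCR copies are not separate molecules. Cx43KO replicate 1 stood apart, its log2 CPM over genes correlating at 0.783 to 0.837 with the other libraries, which correlated at 0.862 to 0.951 among themselves. The targeted gene Gja1 had 91.9, 91.7 and 82.3 CPM in Cx43FL against 87.2, 98.4 and 95.1 in Cx43KO, for a log2 fold change of 0.078 (SE 0.28), and was thus not lower in the libraries labelled Cx43KO. The deleted bases are not given in the sources used here and totals per transcript do not show which bases were read, so that Gja1 did not bear out the labels. Cx43FL and Cx43KO stand for the libraries so labelled, and every direction given here rests on those labels. The astrocyte markers Slc1a3, Aqp4 and Gfap had at least 5040 counts in every library.

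Collagen transcripts were scarce in these astrocyte preparations, and the total was higher in each Cx43KO library. Summed over the 44 chains, it was 72.8, 71.4 and 74.5 CPM in the Cx43FL libraries (replicates 1, 2 and 3 in that order) against 179, 117 and 179.5 in the Cx43KO libraries. The means were 72.9 ± 1.54 CPM and 158 ± 36.2 CPM (SD, n = 3 libraries each), a ratio of 2.17. The Cx43FL libraries lay within a few CPM of each other, and the libraries of the genotypes did not overlap. This is a description of a sum, with no test. Without Col9a3, the most abundant chain, the sum was 52.9, 44.8 and 57.2 CPM in Cx43FL against 152, 75.2 and 100.03 in Cx43KO. Per kb of transcript, the summed level was 15.8, 16.9 and 16.4 CPM per kb in Cx43FL and 34.1, 26.4 and 44.6 CPM per kb in Cx43KO. In such libraries of many cells, fewer cells of a type and less RNA per cell cannot be told apart.

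**Figure D1:**
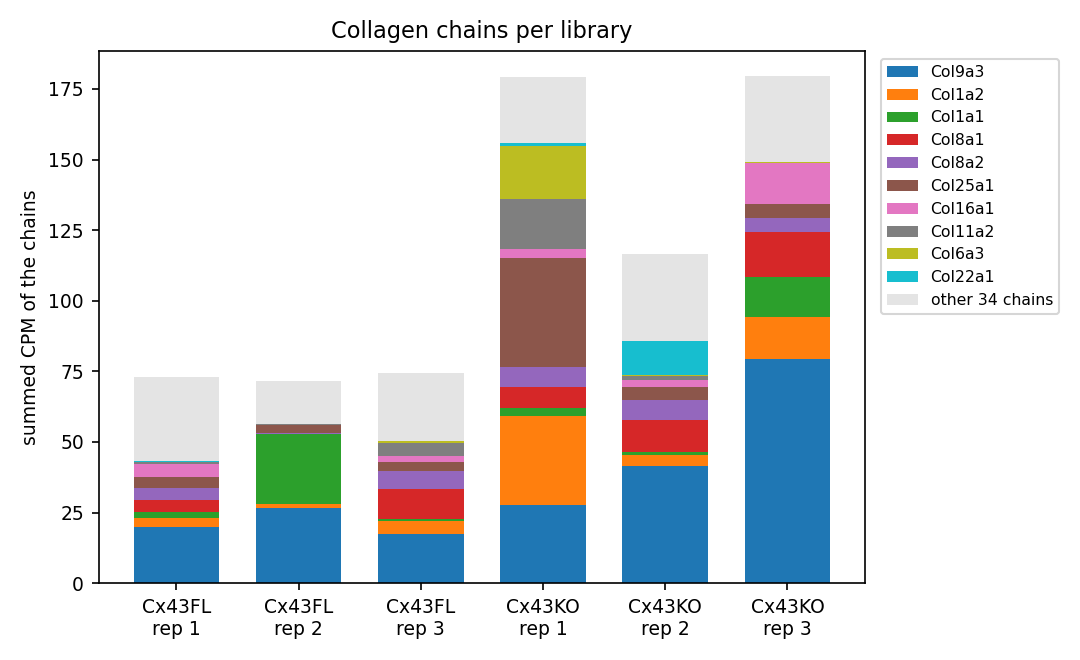
Stacked bars give the CPM of the collagen chains in each of the 6 libraries (x axis: genotype and replicate, y axis: CPM summed over chains, from 0). The 3 Cx43FL bars are nearly equal in height at 71.4 to 74.5 CPM and the Cx43KO bars reach 117 to 179.5 CPM, and the chains that fill a bar differ from library to library.

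The nearly constant total in Cx43FL was made of different chains. Col9a3 held 27.4%, 37.3% and 23.3% of the summed CPM in the Cx43FL libraries against 15.4%, 35.5% and 44.3% in the Cx43KO libraries. Col1a1 held 34.6% in Cx43FL replicate 2 and at most 2.71% in the other 2 Cx43FL libraries. In Cx43KO replicate 1, Col25a1, Col1a2 and Col6a3 held 21.4%, 17.6% and 10.5%, and in Cx43KO replicate 2 Col22a1 held 10.4%.

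With edgeR's quasi-likelihood test and Benjamini-Hochberg adjustment over all genes, no single chain was called in either direction at an adjusted p below 0.05. Of the 44 chains, 17 passed edgeR's filter, which asks for a minimum count in several libraries, and 27 did not. Of these 27, 15 had under 50 counts in all and the other 12, such as Col6a3 and Col22a1, reached that minimum in too few libraries. The count of 0 called chains stands beside 0.00738% of all 13545 tested genes called higher and 0% called lower. At an unadjusted p below 0.05 there were 3 chains (17.6% of the tested ones), namely Col9a3, Col1a2 and Col25a1, all higher in Cx43KO, beside 8.34% of all tested genes in either direction, 5.66% higher and 2.67% lower. DESeq2 called 0 chains with or without its prior on fold changes, beside 0.951% and 1.16% of the genes that had an adjusted p. With the prior, 22 of the 44 chains had an adjusted p, and the rest could not be called there. At an unadjusted p below 0.05 DESeq2, run on all 44 chains, gave 3 with the prior and 4 without, beside 9.79% and 10.8% of genes. Neither share of the 44 chains was above that of all genes, and Col2a1, Col6a3 and Col9a1 had no p there. With the prior the 3 were again Col9a3, Col1a2 and Col25a1, and without it Col22a1 was added. The share over 44 chains includes the 27 that edgeR did not test, and so is not comparable with the 17.6%. All Cx43KO libraries exceeded all Cx43FL libraries for 2 tested chains, Col9a3 and Col25a1 (11.8%, beside 8.08% of all tested genes), and below for 0 (beside 7.45%). The log2 fold change was positive for 11 chains (64.7%, beside 54.4%) and ranged from -0.67 for Col9a2 to 2.58 for Col4a5. Its median was 0.80, beside 0.071 over all tested genes. Over all 44 chains, DESeq2 gave a median of 0.33 without its prior, beside 0.072 over all genes. With the prior it was 0.03, the same as over all genes. The 0.33 is the fitted value shared by 5 chains with a single count in all, which fell in a Cx43KO library. It thus says little about the better counted chains. The lowest adjusted p was 0.540, and the median standard error of 1.24 was larger than that of 0.53 over all tested genes. The adjusted test passed no chain, so the sum and the median are given only as descriptions.

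**Figure D2:**
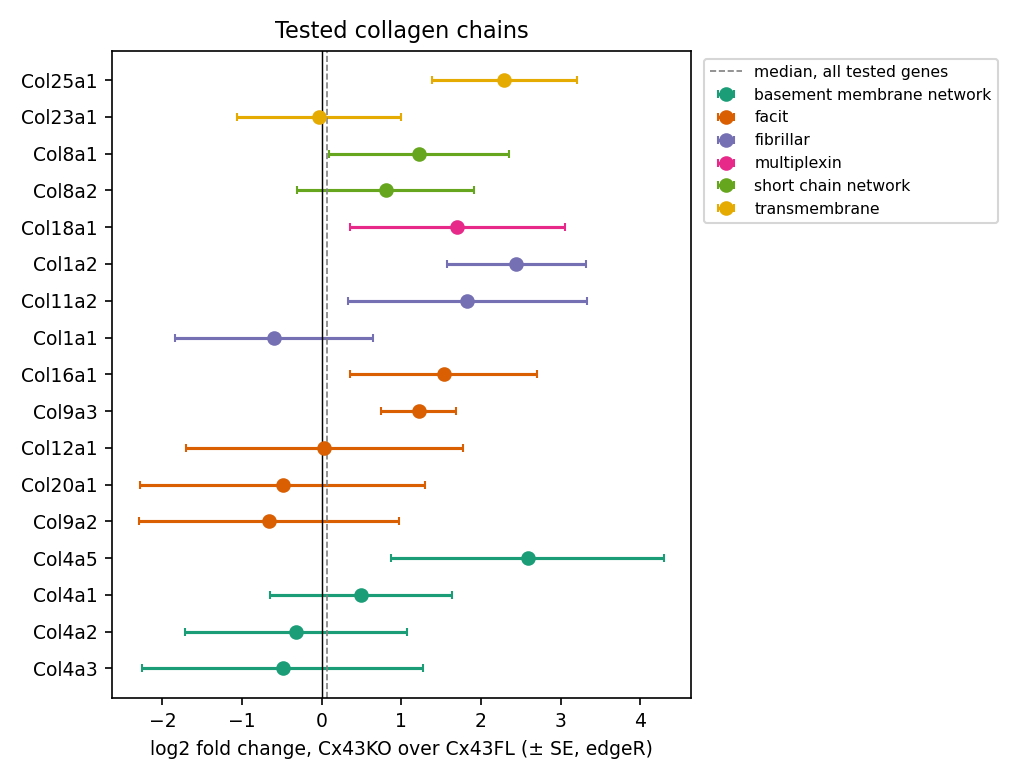
Log2 fold changes (x axis, Cx43KO over Cx43FL, edgeR) with bars of 1 SE for the 17 tested chains (y axis), coloured by collagen class, with the median of all tested genes dashed. The points range from -0.67 to 2.58 and the bar of Col9a3 is the shortest at an SE of 0.47.

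Among the FACIT collagens (5 of 9 tested), Col9a3, a chain of the cartilage-type collagen IX, was the most abundant collagen mRNA per length in Cx43FL, at 6.998 ± 1.58 CPM per kb (SD, n = 3 libraries). The gene lies on chromosome 2 of GRCm38 from 180597790 to 180622189 on the plus strand, and the counted transcript has 33 exons. It had 303, 402 and 266 counts in the Cx43FL libraries (replicates 1, 2 and 3 in that order) against 444, 1032 and 2575 in the Cx43KO libraries, or 19.96, 26.7 and 17.3 CPM against 27.6, 41.5 and 79.5 CPM. The genotypes did not overlap, although Cx43KO replicate 1 exceeded Cx43FL replicate 2 by little. The log2 fold change was 1.22 (SE 0.47, unadjusted p = 0.0251, adjusted p = 0.556 with edgeR), and the exact 2-sided permutation test gave p = 0.1, the smallest that 3 libraries against 3 allow. It was 0.70 without Cx43KO replicate 3, the highest library. Over 234 bases of exon, Col9a3 overlaps Tcfl5 on the opposite strand, and the strand setting of the counting is not given in the sources used here. Tcfl5 itself had 22, 270 and 17 counts in Cx43FL against 31, 29 and 63 in Cx43KO. With all counts of Tcfl5 subtracted, Col9a3 would keep 281, 132 and 249 counts in Cx43FL against 413, 1003 and 2512 in Cx43KO.

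The partner chains of collagen IX were much less abundant, and their counts did not follow those of Col9a3. Col9a1 had 23, 0 and 3 counts in Cx43FL against 0, 0 and 120 in Cx43KO, in too few libraries to pass the filter. Col9a2 had 21, 1 and 21 counts in Cx43FL against 11, 0 and 35 in Cx43KO, for a log2 fold change of -0.67 (SE 1.63, adjusted p = 0.919, edgeR). Both were at 0 counts in Cx43KO replicate 2, in which Col9a3 had 1032 counts. Of the other FACIT chains, named here after their values were seen, Col16a1 had 68, 3 and 36 counts in Cx43FL against 55, 64 and 464 in Cx43KO, a log2 fold change of 1.53 (SE 1.17) with overlapping libraries, which was 0.35 without Cx43KO replicate 3, 0.97 without Cx43FL replicate 2 and 2.39 without Cx43FL replicate 1. Col22a1, known from tissue junctions such as the myotendinous one, had 6, 0 and 0 counts in Cx43FL against 15, 303 and 0 in Cx43KO. Col12a1 had 39, 0 and 19 counts in Cx43FL against 1, 4 and 118 in Cx43KO. For both of these chains 1 Cx43KO library held most of the counts.

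Of the fibrillar chains 3 of 11 were tested. Type I collagen is a trimer of Col1a1 and Col1a2 products, the main fibril collagen of connective tissue. Col1a2 (chromosome 6, 4505493 to 4541544) had 49, 21 and 70 counts in Cx43FL against 508, 94 and 477 in Cx43KO, or 3.23, 1.39 and 4.56 CPM against 31.5, 3.78 and 14.7 CPM. Cx43KO replicates 1 and 3 lay above all Cx43FL libraries, and replicate 2 lay within the Cx43FL range. Its log2 fold change was 2.44 (SE 0.87, unadjusted p = 0.0171, adjusted p = 0.540 with edgeR, and p = 0.2 by the exact 2-sided permutation test), and 1.59 without Cx43KO replicate 1. DESeq2 gave its lowest adjusted p among the chains for Col1a2, 0.126 with the prior and 0.103 without.

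Col1a1 (chromosome 11, 94936224 to 94953042) did not move with its partner. It had 30, 373 and 14 counts in Cx43FL against 45, 32 and 457 in Cx43KO, so that 1 library of each genotype held most of its counts. In Cx43FL replicate 2 there were 373 counts of Col1a1 and 21 of Col1a2, and in Cx43KO replicate 1 there were 45 of Col1a1 and 508 of Col1a2. The log2 fold change of Col1a1 was -0.60 (SE 1.24, adjusted p = 0.902, edgeR), and 2.05 without Cx43FL replicate 2. Of the other fibrillar chains, named here after their values were seen, Col3a1 had 5, 1 and 44 counts in Cx43FL against 93, 0 and 19 in Cx43KO. Col11a2, a chain of collagen XI, had 10, 4 and 68 counts in Cx43FL against 283, 30 and 11 in Cx43KO, for a log2 fold change of 1.83 (SE 1.502) that became -1.20 without Cx43KO replicate 1. Col2a1, the cartilage fibril chain, had 78 counts in Cx43KO replicate 3 and 0 in every other library.

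**Figure D3:**
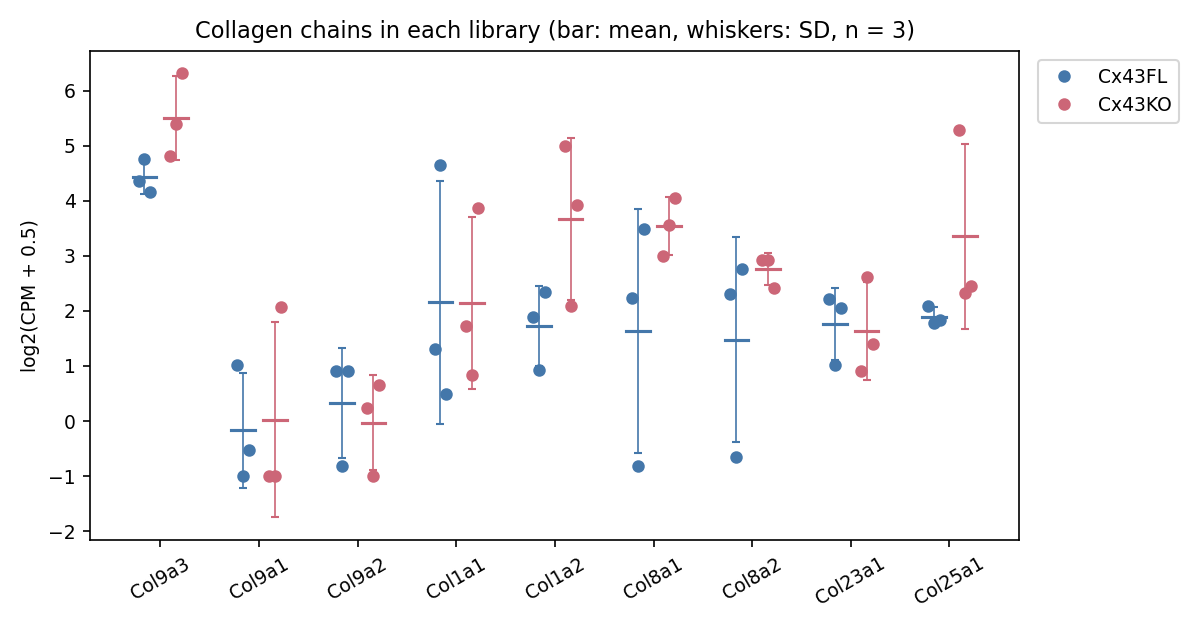
Points are log2(CPM + 0.5) of 9 chains (x axis) in the 3 Cx43FL and 3 Cx43KO libraries, with horizontal bars for means and whiskers for SD (n = 3). The genotypes are separate for Col9a3 and Col25a1 alone, and Col1a1, Col8a1 and Col8a2 each have 1 Cx43FL library far from the others.

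Type VIII collagen, made of Col8a1 and Col8a2 products, is known from endothelial and corneal basement membranes. Col8a1 (chromosome 16, 57624258 to 57754737) had 64, 1 and 164 counts in Cx43FL against 121, 280 and 522 in Cx43KO, or 4.22, 0.066 and 10.7 CPM against 7.51, 11.3 and 16.1 CPM. Col8a2 (chromosome 4, 126286793 to 126314330) had 68, 2 and 97 counts in Cx43FL against 115, 177 and 157 in Cx43KO, or 4.48, 0.13 and 6.32 CPM against 7.14, 7.11 and 4.85 CPM. Both chains were nearly absent from Cx43FL replicate 2 and present in every other library. Their log2 fold changes were 1.22 (SE 1.13) for Col8a1 and 0.80 (SE 1.11) for Col8a2, with adjusted p of 0.753 and 0.841 (edgeR) and p = 0.2 for each by the exact 2-sided permutation test. Without Cx43FL replicate 2 they were 0.63 and 0.23, and without Cx43FL replicate 3, the highest Cx43FL library, 2.44 and 1.46.

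Markers of choroid plexus epithelium had the same low library. Their summed level was 9929, 461 and 15334 CPM in Cx43FL against 32815, 26268 and 22091 in Cx43KO. Ttr, the transthyretin of the choroid plexus, had 9593, 450 and 14872 CPM in Cx43FL against 32150, 25645 and 21438 in Cx43KO. Kl had 1428, 34 and 2007 counts in Cx43FL against 5006, 5678 and 7978 in Cx43KO, and Folr1 had 123, 0 and 299 against 428, 906 and 1095. All 6 markers of the list were tested, 5 of them with all Cx43KO libraries above the Cx43FL ones (beside 8.08% of all tested genes), none at an unadjusted p below 0.05, and their median log2 fold change was 1.36. The part of these cells in the type VIII counts was not tested.

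**Figure D4:**
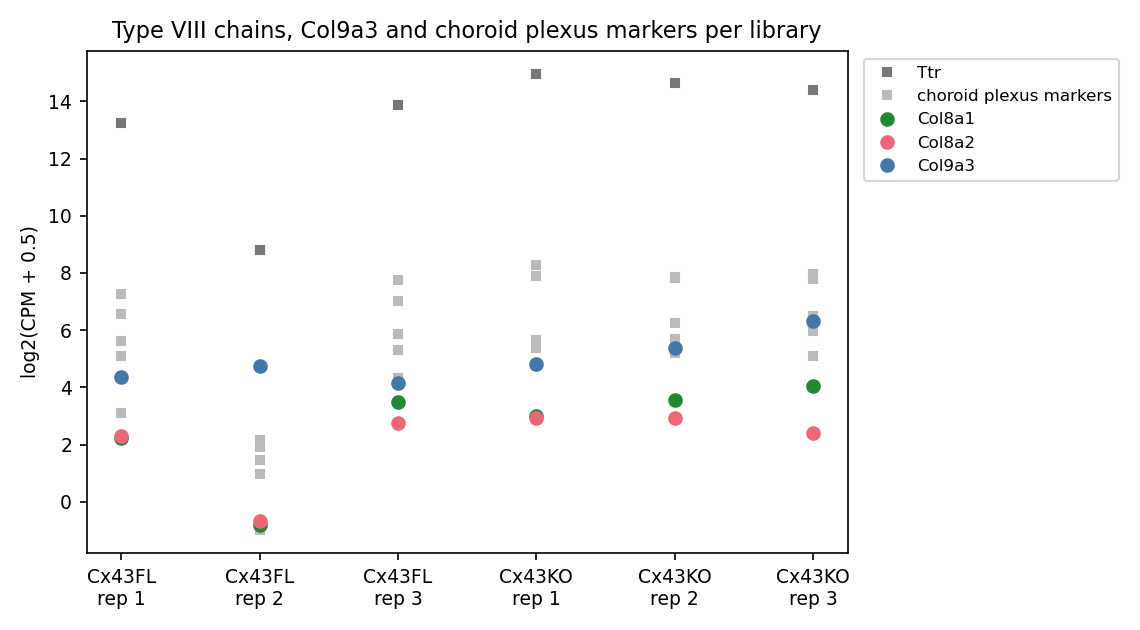
Points are log2(CPM + 0.5) of Col8a1, Col8a2, Col9a3 and the 6 choroid plexus markers (y axis) in each library (x axis). Col8a1, Col8a2 and the markers are all lowest in Cx43FL replicate 2, and Col9a3 at 26.7 CPM there is not.

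The basement membrane chains, named here after their values were seen, had nearly the same summed level in both genotypes, 7.34 ± 2.52 CPM in Cx43FL and 8.94 ± 3.22 CPM in Cx43KO (SD, n = 3 libraries each). Col4a1 and Col4a2, whose products form the main vascular type IV trimer, had 20, 53 and 14 counts and 4, 3 and 78 counts in Cx43FL. In Cx43KO Col4a1 had 11, 75 and 142 counts and Col4a2 had 26, 49 and 28 counts. The chain with the higher count changed from library to library, and the log2 fold changes of 0.50 (SE 1.14) and -0.32 (SE 1.39) were smaller than their standard errors. Col4a5 had 16, 0 and 6 counts in Cx43FL against 1, 45 and 222 in Cx43KO, a log2 fold change of 2.58 (SE 1.72, adjusted p = 0.660, edgeR) with Cx43KO replicate 1 inside the Cx43FL range, and it was 0.96 without Cx43KO replicate 3 and 3.84 without Cx43FL replicate 1. Col4a3 had 90, 13 and 2 counts in Cx43FL against 73, 0 and 14 in Cx43KO. Col4a4 and Col4a6 had at most 12 counts in any library and were not tested.

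Of the transmembrane collagens, Col25a1 and Col23a1 were tested. Col25a1 (chromosome 3, 130180891 to 130599877) encodes a neuronal membrane collagen whose shed ectodomain is known from amyloid plaques. It had 57, 44 and 47 counts in Cx43FL against 619, 112 and 161 in Cx43KO, or 3.75, 2.92 and 3.06 CPM against 38.4, 4.50 and 4.97 CPM. The Cx43FL libraries were close to each other, Cx43KO replicates 2 and 3 lay slightly above them, and replicate 1 was far above. The log2 fold change was 2.29 (SE 0.91, unadjusted p = 0.0291, adjusted p = 0.556, edgeR, and p = 0.1 by the exact 2-sided permutation test, the smallest possible), and it was 0.54 without Cx43KO replicate 1. Neuron markers were also highest in that library, summed at 1478, 1828 and 2045 CPM in Cx43FL against 4169, 1793 and 3224 in Cx43KO. Cx43KO replicate 1 was the highest library for 29.8% of all genes with at least 50 counts, more than any other library. A peak there is thus common. All 6 neuron markers had a positive log2 fold change (median 1.06, 54.4% of all tested genes being positive), 3 of them at an unadjusted p below 0.05 (beside 5.66% of all tested genes in that direction). Oligodendrocyte markers were highest in the same library, at 559, 922 and 584 CPM in Cx43FL against 2511, 940 and 580 in Cx43KO, and so were mural markers, at 31.4, 36.3 and 40.4 against 95.0, 42.0 and 91.2. Slc17a7, the glutamate transporter of excitatory synapses, had 41.2, 67.3 and 58.8 CPM in Cx43FL against 367, 53.1 and 58.3 in Cx43KO. It is 1 of the 6 neuron markers and was chosen here after its values were seen. The neuron sum in Cx43KO replicate 3, 3224 CPM, was also above all Cx43FL libraries. The part of RNA from any of these cells in the Col25a1 counts was not tested. Col23a1 had 63, 23 and 56 counts in Cx43FL against 22, 140 and 69 in Cx43KO, a log2 fold change of -0.03 (SE 1.03).

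None of the 7 beaded filament chains could be tested. Their summed level was 0.785 ± 0.73 CPM in Cx43FL and 8.33 ± 9.88 CPM in Cx43KO (SD, n = 3 libraries each), and the latter came mostly from Col6a3, chosen here after its values were seen, with 304 counts in Cx43KO replicate 1. Col6a3 had 1, 0 and 11 counts in Cx43FL, and the other Cx43KO libraries held 13 and 4. The multiplexin Col18a1, the precursor of endostatin, had 2, 13 and 21 counts in Cx43FL against 37, 125 and 13 in Cx43KO, for a log2 fold change of 1.70 (SE 1.35) and overlapping libraries, which was 0.76 without Cx43KO replicate 2, 1.20 without Cx43FL replicate 1 and 2.36 without Cx43FL replicate 3. Col7a1, the anchoring fibril chain, had 21 counts in Cx43KO replicate 3 and 0 elsewhere. Over all 44 chains, 9 had 3 counts or more in every library, 8 (18.2%, beside 4.32% of the 16836 genes with any count) were at 0 in every Cx43FL library, and 1 (Col5a3) was at 0 in every Cx43KO library (beside 4.16%). Of the 8, 5 had a single count in all, as did Col5a3, and the Cx43KO libraries were the deeper ones.

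Single libraries held much of a chain's signal. Among the 29 chains with at least 50 counts in all, 16 (55.2%) had over 50% of their summed CPM in 1 library, beside 11.4% of the 14384 genes with that many counts. The median share of the highest library was 52.4% for these chains and 28.2% for those genes (a description, with no test). Those genes were not matched to the chains for abundance, and many of the chains had few counts. The highest library was a Cx43KO one for 22 chains (75.9%, beside 61.7% of genes). It was Cx43KO replicate 1, 2 and 3 for 7, 7 and 8 of the 29 chains, beside 29.8%, 12.8% and 19.1% of genes.

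**Figure D5:**
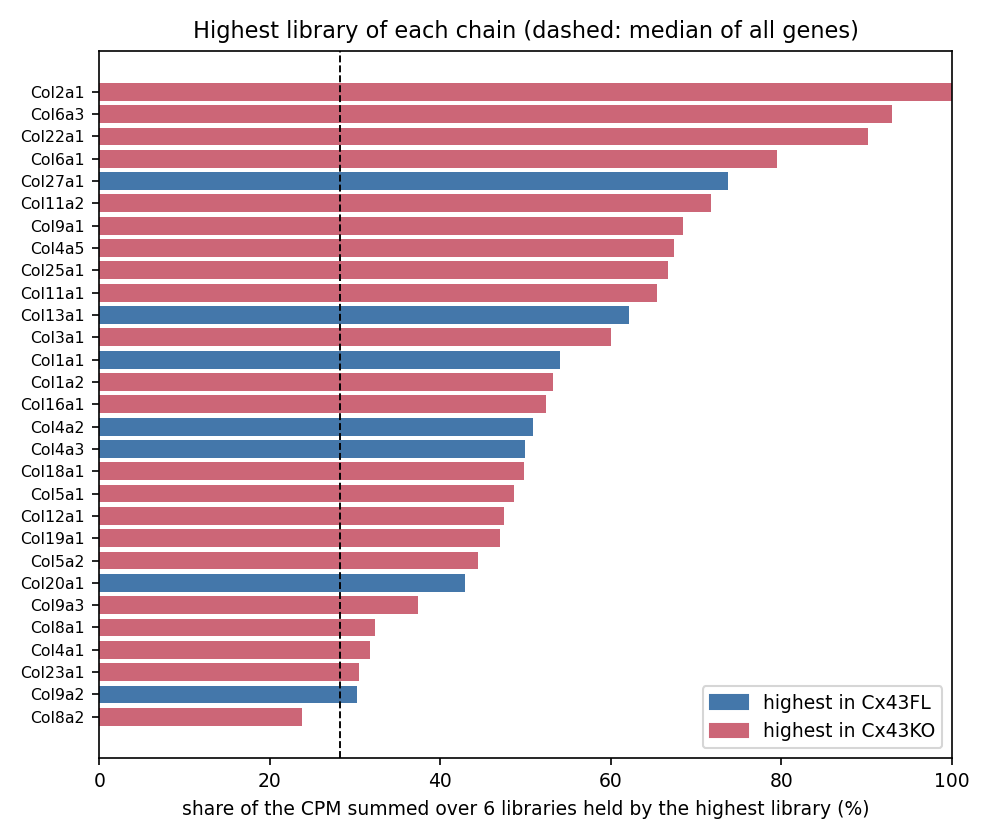
Bars give the percent of each chain's summed CPM that its highest library holds (x axis, 0 to 100%) for the 29 chains with at least 50 counts, coloured by the genotype of that library, with the median of all genes, 28.2%, dashed. Col2a1 reaches 100%, Col6a3 93.0% and Col22a1 90.2%, and 22 bars are of a Cx43KO library.

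Genes that make, bind or cut collagen had 0 members called by edgeR in any list. Of 33 genes of chain synthesis, processing and cross-linking, 29 were tested, 2 had an unadjusted p below 0.05, both higher in Cx43KO, 20 had a positive log2 fold change, and the median was 0.33. The 2 genes are near the share of all tested genes that were higher at that p, 5.66%, and so are not a result about the list. The 20 positive genes stand beside 54.4% of all tested genes. For 5 genes all Cx43KO libraries lay above all Cx43FL libraries, and for 0 below, beside 8.08% and 7.45%. No test was made of the list. The 2 genes at that p were Pcolce and Pcolce2, enhancers of the cleavage of the procollagen C-terminal propeptide. Pcolce had 29, 11 and 121 counts in Cx43FL against 540, 384 and 269 in Cx43KO, a log2 fold change of 2.44 (SE 0.92, adjusted p = 0.554, edgeR). Pcolce2 had 67, 68 and 159 counts in Cx43FL against 392, 648 and 348 in Cx43KO, a log2 fold change of 1.66 (SE 0.64, adjusted p = 0.556, edgeR). Neither gene overlapped between the genotypes.

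Of 10 collagen receptors 5 were tested, with a median log2 fold change of 0.52. Itgb1, the beta subunit of the collagen-binding integrins, had 321, 428 and 354 counts in Cx43FL against 1273, 1020 and 1553 in Cx43KO, a log2 fold change of 1.21 (SE 0.40, adjusted p = 0.540, edgeR), with the libraries of the genotypes separate. Lair1, an inhibitory collagen receptor of immune cells, lay apart in the other direction, at 39.8, 22.4 and 34.6 CPM in Cx43FL against 7.95, 20.1 and 16.8 in Cx43KO (log2 fold change -1.11, SE 0.51, unadjusted p = 0.0510, adjusted p = 0.600, edgeR), and is named after its values were seen. Of 13 collagenases and their inhibitors 9 were tested (median 0.59), and Timp2, a metalloproteinase inhibitor, had a log2 fold change of 0.77 (SE 0.29, adjusted p = 0.552, edgeR), from 1443, 1179 and 1851 counts in Cx43FL against 2510, 4285 and 5555 in Cx43KO. Of 14 basement membrane partners 12 were tested (median 0.71), and Dag1, dystroglycan, had a log2 fold change of 1.11 (SE 0.45, adjusted p = 0.559, edgeR), with 574, 439 and 676 counts in Cx43FL against 705, 1503 and 4386 in Cx43KO. Itgb1, Timp2 and Dag1 were each the only gene of their list with an unadjusted p below 0.05, beside 8.34% of all tested genes, so that 1 gene in lists of this size is not a result about the list.

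Markers of collagen-making cells were counted in both genotypes. The 9 fibroblast and meningeal markers were all tested, all with a positive log2 fold change (median 1.26), beside 54.4% of all tested genes. Ogn and Igfbp2 were higher at an unadjusted p below 0.05, beside 5.66% of all tested genes. The summed level of the 9 markers was 81.5 to 101 CPM in Cx43FL against 133 to 317 in Cx43KO, ranges that did not overlap. The summed levels of the mural, microglia and choroid plexus markers, the synthesis genes and the receptors did not overlap either. Among the defining fibroblast and meningeal markers, Dcn had 156, 249 and 305 counts in Cx43FL against 299, 152 and 1077 in Cx43KO. Lum had 31, 0 and 37 against 13, 336 and 114 counts, and Slc6a13 86, 4 and 101 against 116, 86 and 895 counts. Each of these defining markers overlapped between the genotypes. Of the 9 markers, 2 had all Cx43KO libraries above all Cx43FL libraries and 0 below, beside 8.08% and 7.45% of all tested genes. The 6 tested of 8 mural cell markers had a median of 1.63, with Abcc9 and Anpep higher at an unadjusted p below 0.05 (beside 5.66%). The 8 mural markers summed to 31.4 to 40.4 CPM in Cx43FL against 42.0 to 95.0 in Cx43KO. Their defining marker Kcnj8 was at 0 counts in all 6 libraries. Pdgfrb had 182, 79 and 163 counts in Cx43FL against 254, 181 and 683 in Cx43KO, and Rgs5 had 183, 271 and 230 against 1003, 248 and 781, both overlapping. Endothelial markers summed to 108 to 115 CPM in Cx43FL against 85.5 to 120 in Cx43KO, with 5 of 8 tested, and a median of 0.10. Nearly all of this sum was Slco1c1, with 106, 102 and 104 CPM in Cx43FL against 94.5, 84.8 and 108 in Cx43KO. The counts were 19, 2 and 17 against 62, 0 and 70 for Cldn5, 4, 13 and 6 against 5, 2 and 12 for Pecam1, and 82, 26 and 2 against 125, 0 and 3 for Flt1. Microglia markers summed to 17.6 to 29.8 CPM in Cx43FL against 48.4 to 65.0 in Cx43KO, and oligodendrocyte markers had a median log2 fold change of 1.22. The median was 0.012 for the astrocyte markers, of which Gjb6, another astroglial connexin, had a log2 fold change of -0.83 (SE 0.29, adjusted p = 0.540, edgeR), and 0.13 for those of oligodendrocyte precursors. The part of any of these cells in the collagen counts was not tested.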

How the data were processed

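Per the labels, the TRAP libraries were amplified with the NuGEN Ovation RNA-Seq system. The authors filtered the reads with Eoulsan, mapped them on mm10 with STAR, removed multi-mapping reads, counted with HTSeq-count (HTSeq 0.5.3 in the submitters' processing notes) and deposited raw counts per Ensembl transcript. Nested transcripts share reads. Of 75466 transcripts, 73157 were matched to GENCODE vM21 (GRCm38) and 2309, with 1.60% to 1.78% of the counts, were not. The transcript with the highest total stood for its gene. The genotype effect was fitted in R 4.3.3 with edgeR 4.0.16 (TMM, filterByExpr, quasi-likelihood F test, Benjamini-Hochberg over 13545 genes), called at an adjusted p below 0.05. CPM are counts per M of the counts on tested genes after TMM. Standard errors are the log2 fold change, without its sign, divided by the square root of F. DESeq2 1.42.0 was an alternative. Single genes were also compared by exact permutation on log2(CPM + 0.5).

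Chains were given per library where they were among the 6 highest per kb in Cx43FL, or had a mean normalized count of 50 or more with an unadjusted p below 0.05 or separate genotypes, or were heterotrimer partners of these. Related genes were named by the same count and p, and markers of other cells are given by list with the defining markers of the cells that make collagen. The members and lists were chosen with earlier results of these data known. The tests were checked on simulated data. In the edgeR check the changed genes were more abundant than most chains and changed by more than any tested chain. It thus does not cover changes like those of the chains. Libraries held 33423491 to 77030398 counts over transcripts. Promoter windows are from RefSeq (GRCm38.p6).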

Additional observations from a re-analysis of the deposited data

How the results depend on the processing

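No chain was called, higher or lower, with any alternative. The number of chains with an unadjusted p below 0.05 was 3 of 17 in the original setting, beside 8.34% of all tested genes. It was 6 of 44 without a filter (beside 9.12%) and 1 of 17 with the replicate number as a block (beside 6.55%). With each library left out it was 1 to 5 of 23 to 26 chains, beside 4.61% to 13.9%. Without Cx43KO replicate 1 it was 1 of 23 (beside 8.6%). Leaving out Cx43FL replicate 3 gave 1 of 24 (beside 6.91%), and leaving out Cx43KO replicate 3 gave 5 of 26 (beside 13.9%). The median log2 fold change of 0.80 became 1.07 without a filter (44 chains), 0.33 with DESeq2 without its prior and 0.03 with it (44 chains each, the latter being the value over all genes too), 1.38 with the replicate block, and 0.58 to 1.10 with each library left out. The 0.33 is the fitted value of chains that had a single count in all. With the block, Col1a1 turned to 0.27 and Col4a2 to 1.38. Samples with the same replicate number did not deviate together (correlations of 0.012, -0.0040 and -0.055), so that they share only a number. With single libraries left out, the log2 fold change changed sign for Col11a2 (-1.20 to 3.76), Col12a1 (-3.39 to 1.04), Col1a1 (-2.18 to 2.05), Col20a1 (-1.20 to 0.82), Col23a1 (-0.83 to 0.32), Col4a1 (-0.045 to 1.26), Col4a2 (-0.86 to 2.65) and Col4a3 (-3.36 to 1.69). The cause was not tested. Of the 27 chains that could not be tested, 15 had under 50 counts and 12 had more but reached the minimum in too few libraries, and 9 had 3 counts or more in at most 1 library.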

Other observations

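Within Col9a3, the short transcript Col9a3-205, annotated as a retained intron, has 24.6% of the length of the counted transcript Col9a3-203. It lies at the 3′ side of Col9a3-203, holds part of the same reads and can hold intron reads that Col9a3-203 does not. Its count was 37.0%, 27.6% and 45.1% of the Col9a3-203 count in the Cx43FL libraries against 46.2%, 55.7% and 55.3% in the Cx43KO libraries. The 3 Cx43KO values lay above the 3 Cx43FL values, the closest pair differing little, and no test was made. This transcript was chosen after its values were seen, and others of the same annotation overlapped between genotypes. A transcript of 644 bases had 10.6%, 0.746% and 13.9% against 6.53%, 30.1% and 6.21%. Col9a3-202 had 1.32%, 0% and 2.26% against 10.1%, 3.88% and 0.039%.

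The type IV genes lie in head-to-head pairs. On chromosome 8 of GRCm38 the transcripts of Col4a1 and Col4a2 start at 11312826 and 11312805 and share 22 bases. Col4a4 and Col4a3 start 126 bases apart on chromosome 1, and Col4a6 and Col4a5 start 1308 bases apart on chromosome X. The counts of the paired genes differed within libraries: Col4a3 had 90 counts and Col4a4 had 12 in Cx43FL replicate 1, and Col4a5 had 222 counts and Col4a6 had 4 in Cx43KO replicate 3. These chains were chosen after their values were seen.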
